A study of Mus musculus with 2 samples.

Results

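The cells described here are colonic B cells with abundant transcripts of the IgM heavy chain gene Ighm and no transcript of the IgD heavy chain gene Ighd. The cells were selected on these counts themselves: a cell was taken when it had at least 5 UMIs (unique molecular identifiers, which tag single captured transcripts) of Ighm, 0 of Ighd, fewer UMIs of the class-switched heavy chain genes Igha and Ighg than of Ighm, and under 20% of its UMIs from immunoglobulin genes. These conditions were met by 665 of 7982 cells, 351 of 4692 cells (7.48%, 6.74 to 8.27) at day 14 and 314 of 3290 cells (9.54%, 8.56 to 10.6) at day 0. Day 14 is 1 library of B cells sorted from the colon of female C57BL/6J mice after 7 days of 2% dextran sulfate sodium (DSS), a polysaccharide that injures the colonic epithelium, and 7 days of recovery. Day 0 is 1 library of the same kind from untreated mice. The treatment tag of both libraries reads DSS, and the untreated state of day 0 comes from the protocol text. The number of mice pooled was not stated in the labels, and with 1 library a day no difference between days has a replicate check. Intervals in parentheses are 95% exact intervals and cover counting error only.

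Mature B cells carry IgM and IgD together, made by alternative splicing from the same heavy chain locus, and follicular B cells are known for abundant surface IgD. Marginal zone B cells, B-1 cells and newly formed immature B cells are known for more IgM and less IgD, germinal center B cells lose IgD, and unswitched memory cells can keep IgM alone. In mice, CD9 and the complement receptor CD21 (gene Cr2) mark marginal zone cells, and the transcription factor Bhlhe41 is known for its part in B-1a cells. The question put to the data was therefore which of these traits the IgM-high cells without Ighd showed. On the mm10 build, Ighm lies on the minus strand of chromosome 12 from 113418558 to 113422730 and Ighd on the same strand from 113406604 to 113416324.

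Each selected cell was set against cells of the same library with 1 or 2 Ighd UMIs that met the same limits on switched and immunoglobulin UMIs and lay within 10% of its total UMIs, up to 3 for each. This gave 1018 comparison cells at day 14 and 867 at day 0, and 2 and 6 selected cells had no match. The unmatched cells stayed in all sums and shares, so depth was not matched among the deepest cells. The highest total was 12305 UMIs at day 14 and 16163 at day 0 in the selected cells, against 12241 and 7024 in the comparison cells. The selected cells had a median of 2524 UMIs at day 14 and 2535 at day 0, against 2499 and 2450 in the comparison cells. Mitochondrial transcripts were a median of 3.30% and 3.05% of UMIs in the selected cells, against 3.35% and 3.06%. The comparison cells needed no more than 1 Ighm UMI, so the selected cells also held more of it, a median of 6 UMIs at day 14 and 6.5 at day 0 against 3 and 4. The libraries held 12317052 UMIs at day 14 and 8690102 at day 0, they shared 18 barcodes, and no barcode was selected in both.

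An Ighd count of 0 was the low end of a continuous range and not a separate peak. Among unswitched cells with at least 5 Ighm UMIs, 351 of 1135 (30.9%) had 0 Ighd UMIs at day 14 and 314 of 982 (32.0%) at day 0. Just outside the rule, 305 and 296 cells had 1 Ighd UMI. At the other limit, 124 cells at day 14 and 91 at day 0 had exactly 5 Ighm UMIs, and 164 and 126 cells without Ighd had 4. The highest Ighm count was 66 in 1 cell at day 14 and 46 at day 0. At this depth a count of 0 does not show that a cell lacked IgD. After each cell was thinned to 1000 UMIs, 1.60% of cells at day 14 and 2.61% at day 0 met the rule. UMIs of Igha or Ighg were found in 59 selected cells (16.8%) at day 14 and 129 (41.1%) at day 0, against 12.7% and 32.9% of comparison cells. Of all cells of the libraries, 17.6% at day 14 and 38.7% at day 0 had UMIs of Igha or Ighg. The rule caps these UMIs below the cell's Ighm count, and that cap is higher in the selected cells, so the shares are not comparable between the sets.

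All selected cells had at least 5 UMIs of the mature B cell list. Cd74, which is also on the MHC class II list, gave 27114 of its 35378 UMIs at day 14 and 23875 of 30938 at day 0. Cd79a, a signalling chain of the antigen receptor, had UMIs in 98.9% of the selected cells at day 14 and 98.7% at day 0. Of the named markers, Cd9 was higher than in the comparison cells, and Cr2 and Bhlhe41 did not pass the test. Cd9 was found in 31 of 351 cells (8.83%) at day 14 and 24 of 314 (7.64%) at day 0, against 4.91% and 4.50% of comparison cells. Cr2 was found in 24.5% and 18.2% of the selected cells, against 22.2% and 19.7%. Bhlhe41 was found in 6 and 9 selected cells. None of Cd9, Cr2 and Bhlhe41 was detected in 241 of 351 cells at day 14 and 230 of 314 at day 0, and 0 cells had UMIs of all of them. No single B cell subset name is therefore given, and the cells are called IgM-high Ighd-0 cells below.

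The IgM-high Ighd-0 cells were spread over most of the 11 clusters found in all cells, as the plot of cluster shares shows. The largest parts at day 14 lay in the cluster led by Slfn2 and Tmem108 (88 cells, 25.1%) and in that led by Emp3 and Cystm1 (62 cells, 17.7%), against 23.0% and 18.5% of comparison cells. At day 0 the cluster led by Gm6377 and Rasgef1b held 103 cells (32.8%), against 34.6% of comparison cells. None of either set was in the plasma-like cluster, and since both sets were limited in switched and immunoglobulin UMIs, this count is not a finding.

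A small cluster with germinal center markers and a cluster led by S100a6, Basp1 and Rgs1 took larger shares of the IgM-high Ighd-0 cells than of comparison cells on both days. The germinal center-like cluster, whose leading genes included Rgs13 and Pclaf, held 6 IgM-high Ighd-0 cells (1.71%, 0.630 to 3.68) at day 14, against 2 comparison cells (0.196%, 0.0238 to 0.708). At day 0 it held 17 IgM-high Ighd-0 cells (5.41%, 3.19 to 8.53), against 3 comparison cells (0.346%, 0.0714 to 1.01). That cluster had 17 cells in all at day 14 (0.362% of all cells) and 34 at day 0 (1.03%). The cluster led by S100a6, Basp1 and Rgs1, which also showed Cd80 and Nt5e among its leading genes and stays unnamed, held 15 IgM-high Ighd-0 cells (4.27%, 2.41 to 6.95) at day 14, against 1.47% (0.827 to 2.42) of comparison cells. At day 0 it held 28 (8.92%, 6.01 to 12.6), against 1.38% (0.717 to 2.41). Of all cells the S100a6 cluster held 2.56% at day 14 and 4.95% at day 0. The value of 2.56% lies within the day 14 interval of the IgM-high Ighd-0 cells. The intervals of the 2 cell sets did not overlap for the S100a6 cluster at day 0 or for the germinal center-like cluster at day 0, and at day 14 they overlapped slightly for both. Cluster membership depends on gene levels, so these shares are descriptions without a test.

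**Figure D1:**
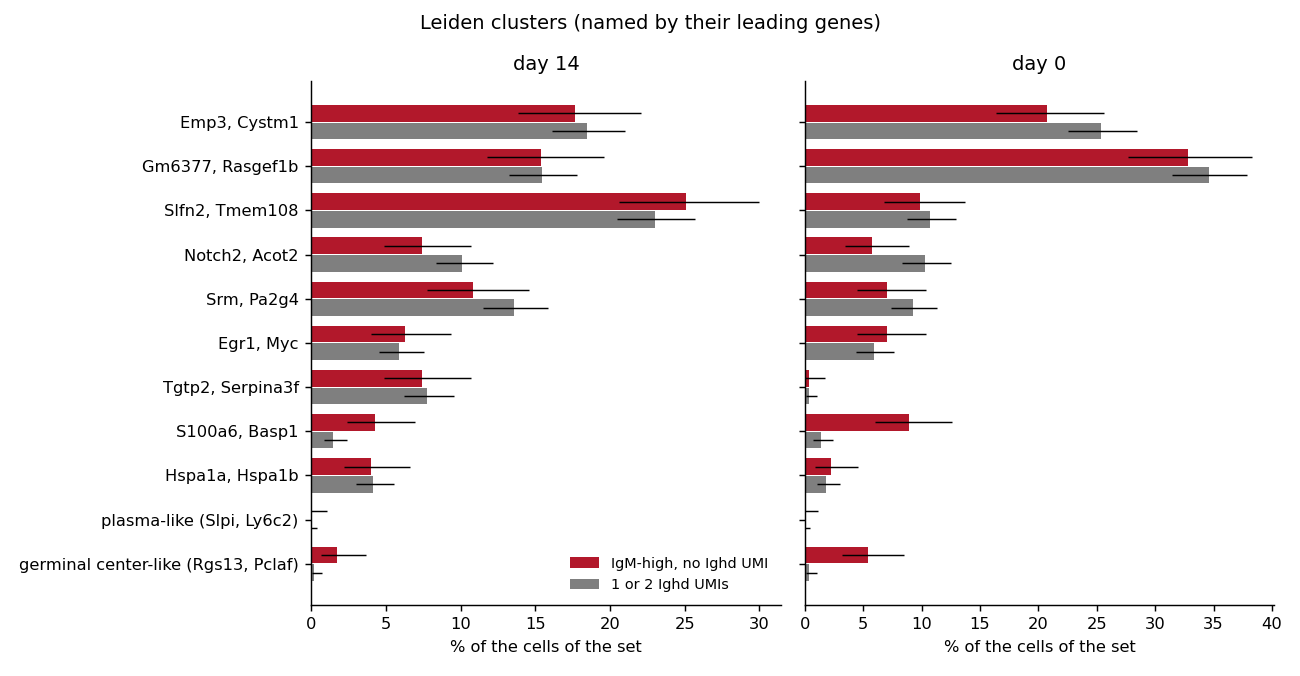
Share of IgM-high Ighd-0 cells (red) and matched comparison cells with 1 or 2 Ighd UMIs (grey) in each of 11 clusters, as a percentage of the cells of the set, with day 14 in the left panel and day 0 in the right; lines are 95% exact intervals. The germinal center-like cluster and the cluster led by S100a6 and Basp1 hold larger shares of the red set, and the plasma-like cluster holds 0 cells of either set, both of which were limited in immunoglobulin UMIs.

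For the gene comparison, UMIs were summed per library and cell set and tested over both libraries, with the library as a block. Of 8719 genes tested by edgeR's quasi-likelihood test, 90 (1.03%) were higher in IgM-high Ighd-0 cells and 61 (0.7%) lower at a Benjamini-Hochberg adjusted p under 0.05. The median log2 fold change of all tested genes was 0.00, and 881 genes had an unadjusted p under 0.05. Scaling by total UMIs alone gave 74 higher and 12 lower, so the number of lower genes depends on the scaling. The 4 sums leave 1 residual degree of freedom a gene, the libraries are different days, and spread between cells within a library does not enter the test, so a gene carried by few cells can pass. For this reason the number of cells behind a value is given below where it is small. DESeq2 called 9 genes higher, all among the 90, and 0 lower, with 90 genes at an unadjusted p under 0.05. Levels (CPM) are a gene's UMIs for each 1000000 UMIs of genes other than immunoglobulin and mitochondrial genes, and ratios are IgM-high Ighd-0 over comparison cells.

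Apoe, which encodes the lipid carrier apolipoprotein E and lies on chromosome 7 from 19696109 to 19699188 on the minus strand, had the lowest p of all tested genes. Its level was 1042 CPM in IgM-high Ighd-0 cells at day 14, against 528 CPM in comparison cells, a ratio of 1.97 (1.82 to 2.14). At day 0 it was 1608 CPM against 888 CPM, a ratio of 1.81 (1.69 to 1.94). The log2 fold change over both days was 0.87 ± 0.05 (SE, adjusted p = 4.37e-32, edgeR). Apoe was detected in 50.7% of IgM-high Ighd-0 cells (45.4 to 56.1) at day 14, against 42.5% (39.5 to 45.6), and in 55.4% (49.7 to 61.0) at day 0, against 55.8% (52.4 to 59.2). Much of the Apoe signal lay in cells with many UMIs of it. At least 10 UMIs were found in 30 IgM-high Ighd-0 cells (8.55%) at day 14, against 2.46% of comparison cells, and in 53 (16.9%) at day 0, against 5.07%. These cells held 647 of the 1071 Apoe UMIs of the set at day 14 and 1035 of 1431 at day 0. The cell with the most had 98 at day 14 and 77 at day 0.

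The Apoe difference varied between clusters. In IgM-high Ighd-0 cells of the S100a6 cluster Apoe stood at 2973 CPM at day 14 and 2709.8 CPM at day 0, and in those of the germinal center-like cluster at 2166 CPM and 2435 CPM. In the cells of all other clusters it was 868 CPM at day 14, against 526 CPM in comparison cells of the same clusters, and 1312 CPM against 869 CPM at day 0. The ratio was above 1 in 7 of 9 clusters that had at least 10 cells of each set at day 14 and in 6 of 7 at day 0, from 0.856 to 4.10 and from 0.451 to 3.54. The interval lay above 1 in 5 of the 9 and 4 of the 7. In the clusters that held the most IgM-high Ighd-0 cells at day 14 the ratios were 0.921 (0.745 to 1.13; Slfn2 and Tmem108) and 0.856 (0.678 to 1.07; Emp3 and Cystm1). At day 0 the ratio in the cluster led by Notch2 and Acot2 was 0.451 (0.253 to 0.752), from 18 IgM-high Ighd-0 cells. In the cluster led by Srm and Pa2g4, which encode an enzyme of polyamine synthesis and a factor of ribosome formation, it was 3.30 (2.78 to 3.91) at day 14 and 3.54 (2.95 to 4.25) at day 0. Apoe passed the test under 15 of 16 other settings, with adjusted p between 1.30e-79 and 0.0688, and missed it where the fit had no library block.

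Plac8, a gene of a small cysteine-rich protein that is also on the B-1 list used here, was higher as well. It reached 1812 CPM in IgM-high Ighd-0 cells at day 14, against 1225 CPM, and 1390 CPM at day 0, against 1075 CPM. The ratios were 1.48 (1.40 to 1.57) and 1.29 (1.21 to 1.39), and the log2 fold change was 0.43 ± 0.04 (SE, adjusted p = 6.62e-15, edgeR). At least 10 Plac8 UMIs were found in 51 cells (14.5%) at day 14, against 7.27% of comparison cells, and in 31 (9.87%) at day 0, against 4.73%. In the 6 and 17 IgM-high Ighd-0 cells of the germinal center-like cluster Plac8 stood at 45.1 CPM and 149 CPM. Plac8 also varied between clusters. Where a cluster had at least 10 cells of each set, its ratio was above 1 in 8 of 9 at day 14 and 5 of 7 at day 0. The interval lay above 1 in 6 and 3 of them. The ratios ran from 0.892 to 2.29 and from 0.853 to 2.46, highest on both days in the cluster led by Srm and Pa2g4. Like Apoe, Plac8 passed under 15 of 16 other settings and missed where the fit had no library block.

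**Figure D2:**
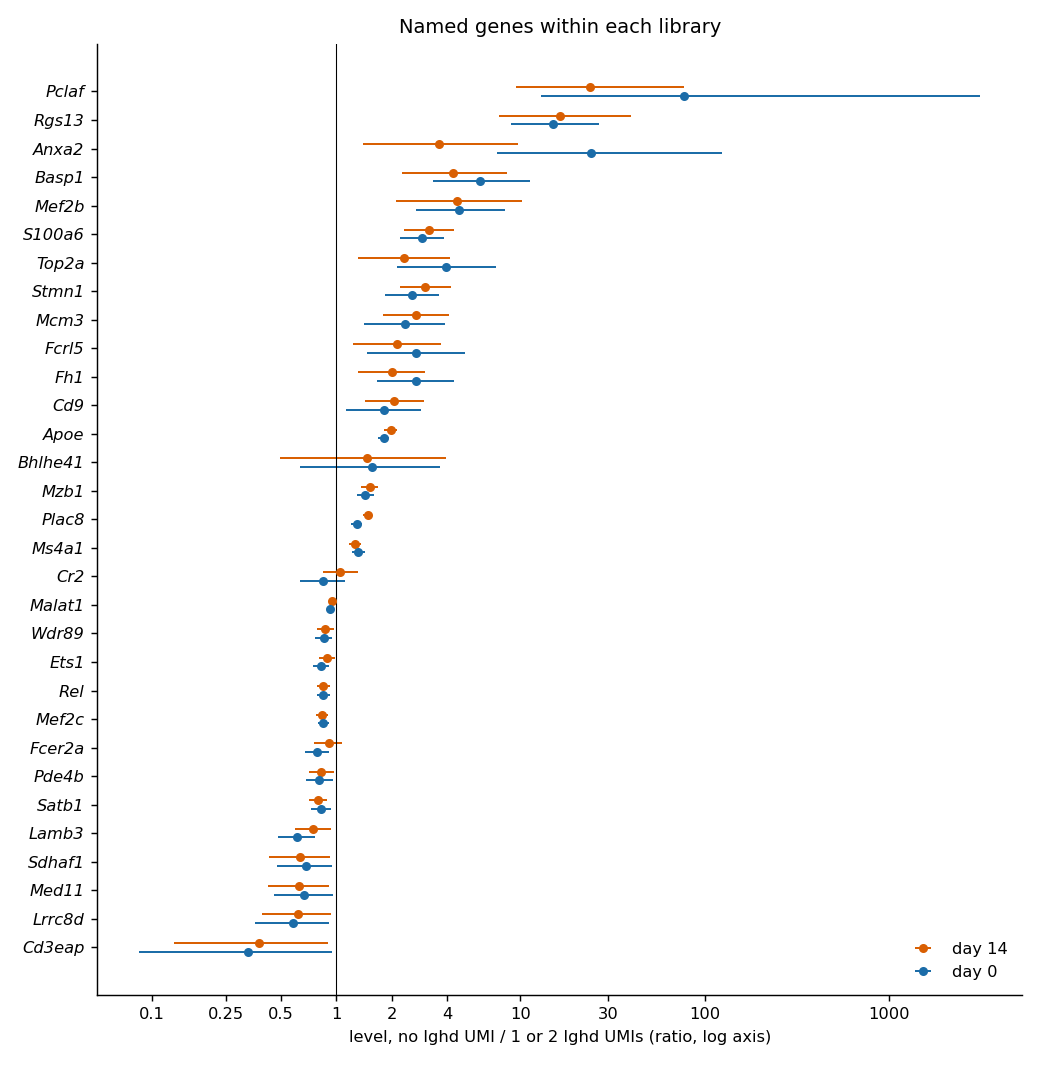
Ratio of the level in IgM-high Ighd-0 cells to that in comparison cells (log axis) for genes named by rule and 8 further genes, with day 14 in orange and day 0 in blue and 95% counting intervals. Pclaf and Rgs13 lie far to the right with wide intervals, Apoe lies at 1.97 and 1.81 with narrow ones, and Cr2 and Bhlhe41 have intervals that include 1 on both days.

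Of the B-1 list, 16 of 20 genes could be tested, and 4 rose and 0 fell, against 1.03% and 0.7% of all tested genes. The median log2 fold change of the list was 0.58, against 0.00 for all genes. The genes that rose were Plac8, Zbtb20, Atxn1 and Nt5e. Zbtb20, a transcription factor of B-1 and plasma cells, stood at 85.6 CPM at day 14, against 58.6 CPM, and at 124 CPM at day 0, against 73.9 CPM. Nt5e, which encodes the ecto-enzyme CD73, rested on 7 UMIs at day 14 and 23 at day 0. The genes most often used to define B-1 cells gave little: Cd5, Spn and Itgam were below the count needed for a test. Bhlhe41 rested on 7 UMIs at day 14 and 10 at day 0, giving ratios of 1.46 (0.495 to 3.95) and 1.56 (0.632 to 3.65) and an adjusted p of 0.778 (edgeR). Zbtb32 had ratios of 2.72 and 5.61 from 6 and 9 UMIs, with an adjusted p of 0.139 (edgeR).

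Summed over the list, B-1 genes stood at 2319.6 CPM at day 14, against 1623 CPM, and at 1979.9 CPM at day 0, against 1500.4 CPM, ratios of 1.43 (1.36 to 1.502) and 1.32 (1.24 to 1.40). Plac8 gave 1863 of the 2385 UMIs at day 14 and 1237 of 1762 at day 0. At least 10 UMIs of the list were found in 68 IgM-high Ighd-0 cells at day 14, against 117 of the 1018 comparison cells, and in 47 at day 0, against 60 of 867. When the germinal center-like cells, the plasma-like cells and the S100a6 cluster were left out, Zbtb20 (adjusted p = 0.656), Atxn1 (0.156) and Nt5e (0.885) no longer passed in edgeR, and Plac8 did (5.70e-34).

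The marginal zone list had 12 testable genes of 15, of which 3 rose and 0 fell, against 1.03% and 0.7% of all tested genes, with a median log2 fold change of 0.23. The genes that rose were Cd9, Fcrl5 and Mzb1. Cd9, a tetraspanin encoded on chromosome 6 from 125460266 to 125494791, stood at 52.5 CPM at day 14, against 25.4 CPM, and at 38.2 CPM at day 0, against 21.2 CPM. Its ratios were 2.07 (1.42 to 2.99) and 1.80 (1.13 to 2.87), with a log2 fold change of 0.92 ± 0.22 (SE, adjusted p = 0.00693, edgeR). Fcrl5, an Fc receptor-like protein of mouse marginal zone and B-1 cells, had ratios of 2.14 (1.23 to 3.69) and 2.71 (1.48 to 4.998) from 26 and 25 UMIs (adjusted p = 0.00625, edgeR). Of the 31 Cd9-positive cells at day 14, 12 also had Fcrl5, against 4 of 50 in the comparison cells. At day 0 the numbers were 5 of 24, against 0 of 39. These are counts from few cells, and no test was made.

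Mzb1, an endoplasmic reticulum protein that helps assemble IgM, was the most abundant of these genes. It reached 532 CPM at day 14, against 350 CPM, and 597 CPM at day 0, against 415 CPM, ratios of 1.52 (1.37 to 1.69) and 1.44 (1.29 to 1.60) with an adjusted p of 3.17e-09 (edgeR). Cr2 stood at 112 CPM at day 14, against 106 CPM, and at 77.5 CPM at day 0, against 91.9 CPM. Its ratios were 1.05 (0.842 to 1.31) and 0.844 (0.632 to 1.11), with an adjusted p of 0.891 (edgeR). Cd1d1, the lipid antigen presenter CD1d, had ratios of 1.59 (0.987 to 2.52) and 1.48 (0.793 to 2.69) and did not pass (adjusted p = 0.427, edgeR). Notch2, the receptor needed for marginal zone cells to form, stood at 50.6 CPM and 77.5 CPM, against 75.1 CPM and 84.3 CPM, and did not pass (adjusted p = 0.327, edgeR). The summed list was 1.31 times (1.22 to 1.41) the comparison level at day 14 and 1.27 times (1.18 to 1.37) at day 0. Mzb1 gave 547 of the 1115 UMIs of the list at day 14 and 531 of 998 at day 0. In comparison cells it gave 979 of 2317 and 920 of 1956. Without the germinal center-like, plasma-like and S100a6 clusters, Cd9 (adjusted p = 0.559) and Fcrl5 (0.316) no longer passed in edgeR, and Mzb1 did (7.07e-05). Over the 16 other settings Mzb1 passed in 13, Cd9 in 7 and Fcrl5 in 6. Mzb1 lost its call without cells of high UMI number, after thinning to 1000 UMIs and without the library block, with a highest adjusted p of 0.393. With comparison cells limited to at least 5 Ighm UMIs, Cd9 gave an adjusted p of 0.736 and Mzb1 of 0.000970 (edgeR).

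The immature and transitional list showed little difference. Of its 16 genes 8 could be tested, 1 rose and 0 fell, against 1.03% and 0.7% of all tested genes, and the median log2 fold change was −0.02. Cd24a, which encodes the heat-stable antigen CD24 and is high in immature B cells, stood at 497 CPM at day 14, against 363 CPM, and at 556 CPM at day 0, against 439 CPM. Its ratios were 1.37 (1.23 to 1.52) and 1.27 (1.13 to 1.41), with an adjusted p of 0.000213 (edgeR), and it passed in 10 of 16 other settings. Cd93, a marker of immature B cells, had 5 UMIs on each day and ratios of 1.24 (0.337 to 3.86) and 0.416 (0.126 to 1.08). Vpreb3, a partner of the developing receptor, had ratios of 0.993 (0.853 to 1.15) and 1.11 (0.919 to 1.34) and an adjusted p of 0.980 (edgeR). The recombination genes Rag1 and Rag2 and the surrogate light chain genes Vpreb1 and Igll1 were below the count needed for a test. The summed list had ratios of 1.04 (0.993 to 1.09) and 1.03 (0.980 to 1.09), and neither interval excludes 1.

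Genes of follicular naive cells differed little. All 14 could be tested, 0 rose and 1 fell, against 1.03% and 0.7% of all tested genes, with a median log2 fold change of −0.09. The gene that fell was Satb1, a chromatin organizer, at 376 CPM at day 14, against 472 CPM, and 355 CPM at day 0, against 430 CPM (log2 fold change −0.35 ± 0.07, SE, adjusted p = 0.000891, edgeR). Satb1 passed in 6 of 16 other settings, and without the germinal center-like, plasma-like and S100a6 clusters its adjusted p was 0.804 and its ratio at day 0 turned to 1.02. Fcer2a, which encodes CD23, stood at 170 CPM, against 188 CPM, and 261 CPM, against 331 CPM, with ratios of 0.907 (0.760 to 1.08) and 0.788 (0.677 to 0.915), and did not pass (adjusted p = 0.0779, edgeR). Neither did the chemokine receptor gene Ccr7 (adjusted p = 0.0667, edgeR). The summed list had ratios of 0.956 (0.920 to 0.993) at day 14 and 0.914 (0.881 to 0.949) at day 0. At day 0 its direction depended on the cells kept, with a ratio of 1.02 once the germinal center-like, plasma-like and S100a6 clusters were left out.

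**Figure D3:**
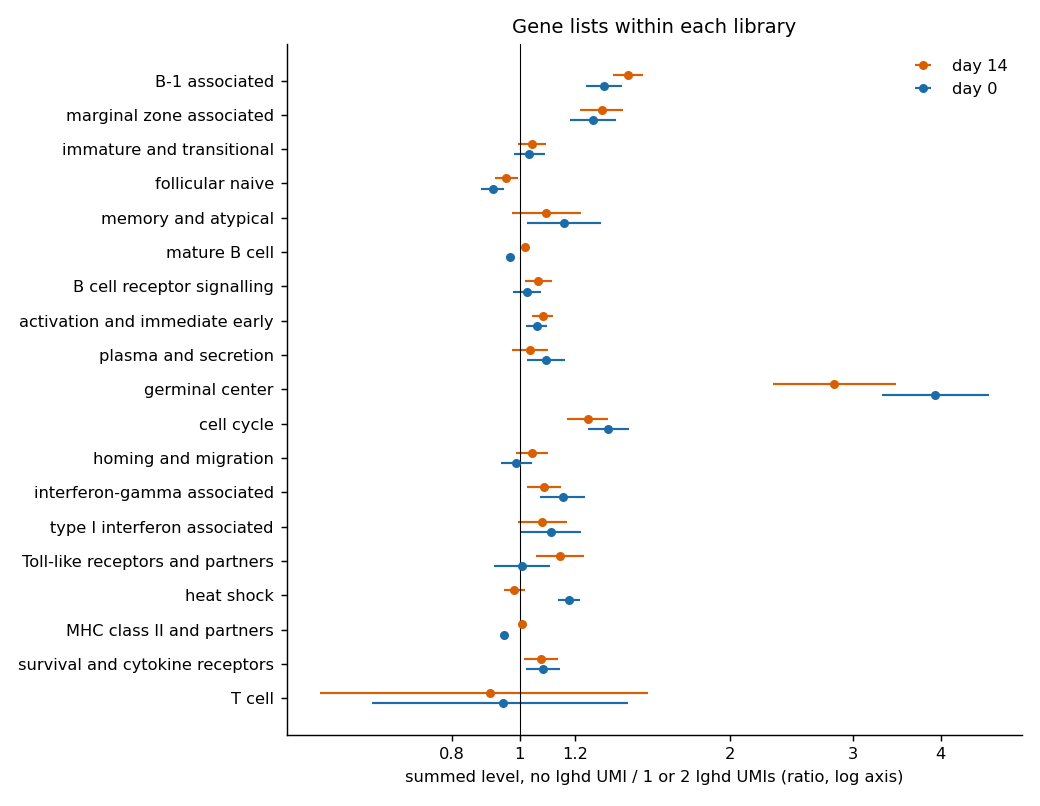
Ratio of the summed level of each gene list in IgM-high Ighd-0 cells to that in comparison cells (log axis), with day 14 in orange and day 0 in blue and 95% counting intervals. The germinal center list lies at 2.82 and 3.93, the B-1 list at 1.43 and 1.32 and the marginal zone list at 1.31 and 1.27, and the follicular list lies just below 1.

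The germinal center list was carried by few cells. Of 8 testable genes 6 rose and 0 fell, against 1.03% and 0.7% of all tested genes, with Rgs13, Mef2b, Nuggc, Basp1 and Fas among those that rose and with a median log2 fold change of 2.27. Rgs13, a regulator of G protein signalling in germinal center cells, had 48 UMIs in 10 IgM-high Ighd-0 cells at day 14, or 46.7 CPM against 2.86 CPM, and 102 UMIs spread over 22 cells at day 0, or 115 CPM against 7.66 CPM (log2 fold change 3.88 ± 0.26, SE, adjusted p = 1.36e-24, edgeR). Of these UMIs, 44 at day 14 and 91 at day 0 were in the 6 and 17 germinal center-like cells. All cells of that cluster, over both libraries, had a median of 6455 total UMIs. Rgs13 passed in 13 of 16 other settings. It lost its call without cells of high UMI number and wherever the germinal center-like cells were left out. The summed list stood at 193 CPM at day 14, against 68.3 CPM, and at 378 CPM at day 0, against 96.0 CPM, ratios of 2.82 (2.30 to 3.46) and 3.93 (3.30 to 4.69). In the cells of the other clusters it was 82.0 CPM and 88.2 CPM, against 64.5 CPM and 82.0 CPM in comparison cells.

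Cell cycle genes were also concentrated in these cells. Of 12 testable genes 6 rose and 0 fell (Mcm3, Stmn1, Pclaf, Ccnb2, Top2a and Birc5), against 1.03% and 0.7% of all tested genes, with a median log2 fold change of 1.38. Pclaf, a partner of the replication clamp, had 44 UMIs in 6 IgM-high Ighd-0 cells at day 14 and 31 UMIs within 5 cells at day 0, against 5 and 1 UMIs in comparison cells (adjusted p = 3.11e-19, edgeR). Of those UMIs 40 and 31 were in germinal center-like cells. Stmn1, which destabilizes microtubules, stood at 82.7 CPM and 83.2 CPM, against 27.2 CPM and 32.4 CPM. In other clusters it was 23.7 CPM and 23.5 CPM, against 23.8 CPM and 30.6 CPM. The summed list had ratios of 1.252 (1.17 to 1.34) and 1.34 (1.25 to 1.43), and without germinal center-like and plasma-like cells these became 0.991 and 0.835.

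Of the memory and atypical list, 3 of 10 testable genes rose and 0 fell (Fcrl5, Nt5e and Cd80), against 1.03% and 0.7% of all tested genes, with a median log2 fold change of 0.24. Cd80, a costimulatory ligand found on mouse memory B cells, had 8 UMIs at day 14 and 23 at day 0, ratios of 4.35 (1.26 to 16.9) and 5.21 (2.44 to 11.8). Of these, 6 and 6 UMIs lay in the S100a6 cluster, and 1 cell at day 0 held 13. The summed list had ratios of 1.09 (0.974 to 1.22) and 1.16 (1.02 to 1.31).

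S100a6, which encodes a calcium-binding protein, stood at 88.5 CPM at day 14, against 27.9 CPM, and at 130 CPM at day 0, against 44.6 CPM (log2 fold change 1.55 ± 0.16, SE, adjusted p = 1.26e-13, edgeR). It helped define its cluster, which held 62 of its 91 UMIs at day 14 and 101 of 116 at day 0. Within that cluster the level was 1078 CPM in IgM-high Ighd-0 cells at day 14, against 788 CPM, and 992 CPM at day 0, against 556 CPM. Without the cluster the ratio at day 0 turned to 0.575. Of the 99 S100a6 UMIs of comparison cells at day 0, 42 lay in 1 cell outside that cluster. The part of that cell in the ratio was not tested. Crip1, a small LIM domain protein gene chosen after its values were seen, stood at 908 CPM and 805 CPM, against 635 CPM and 597 CPM, and passed in 14 of 16 other settings. It no longer passed once the germinal center-like, plasma-like and S100a6 clusters were left out together (adjusted p = 0.169, edgeR), nor without the library block.

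Of the mature B cell list, 2 of 10 genes rose and 1 fell, against 1.03% and 0.7% of all tested genes, and 7 were not called. Ms4a1 and Cd79b rose and Cd74 fell. Ms4a1, which encodes CD20, stood at 949 CPM at day 14, against 753 CPM, and at 1015 CPM at day 0, against 773 CPM (log2 fold change 0.32 ± 0.05, SE, adjusted p = 1.504e-06, edgeR). Cd79b, the second signalling chain of the receptor, had ratios of 1.14 (1.05 to 1.24) and 1.23 (1.13 to 1.33). Ms4a1 passed in 12 of 16 other settings and Cd79b in 7. The summed list had ratios of 1.02 at day 14 and 0.969 at day 0. Of 23 genes of B cell receptor signalling, 0 rose and 0 fell, against 1.03% and 0.7% of all tested genes. Of 10 genes of MHC class II presentation, 0 rose and 2 fell, against 1.03% and 0.7% of all tested genes. The 2 were H2-Aa and Cd74, with log2 fold changes of −0.11 and −0.08. Under scaling by total UMIs neither of these passed, and over the 16 other settings H2-Aa passed in 5 and Cd74 in 4. By its level in CPM Cd74 was not lower at day 14, with 27114 of 1028189 UMIs, against 73449 of 2796944 in comparison cells. At day 0 Cd74 was lower, with 23875 of 889920 UMIs, against 62790 of 2219348. The remaining lists gave 1 gene each that rose and 0 that fell for activation (Atf3 of 23), homing (Rgs1 of 16), interferon-gamma (Gbp2 of 24), heat shock (Hspa8 of 10) and survival receptors (Fas of 16). Plasma cell secretion (13 genes), type I interferon (15) and Toll-like receptors (8) gave 0 in either direction. Of all tested genes 1.03% rose and 0.7% fell, and counts of 0 or 1 in lists this short are not read as results about them. Atf3, a stress-induced transcription factor, had 46 of its 88 UMIs at day 0 in 1 cell.

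Among genes that fell, Mef2c, a transcription factor active downstream of the B cell receptor, stood at 921 CPM at day 14, against 1098 CPM, and at 1087 CPM at day 0, against 1276 CPM (log2 fold change −0.29 ± 0.05, SE, adjusted p = 1.94e-06, edgeR). Rel, an NF-kappaB subunit, had ratios of 0.850 (0.786 to 0.919) and 0.850 (0.782 to 0.923), and Ets1, a transcription factor known in mice to restrain plasma cell formation, had ratios of 0.888 (0.803 to 0.981) and 0.824 (0.744 to 0.911). Lamb3, a laminin subunit gene, had ratios of 0.750 (0.598 to 0.933) and 0.611 (0.484 to 0.765). The long noncoding RNA Malat1 fell by 0.14 on the log2 scale. Of 81 ribosomal protein genes, 0 rose and 33 fell, against 1.03% and 0.7% of all tested genes, with a median log2 fold change of −0.08. Scaling by total UMIs left 7 lower, leaving out the germinal center-like, plasma-like and S100a6 clusters left 2, and comparison cells with at least 5 Ighm UMIs left 0. Mef2c passed in 13 of 16 other settings, Rel in 11 and Ets1 in 5. No gene fell when the comparison cells were limited to at least 5 Ighm UMIs in edgeR, where 38 rose and 598 genes had an unadjusted p under 0.05. Among these 38, 37 were of the original 90.

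When the germinal center-like and plasma-like cells and the S100a6 cluster were left out together, a choice made after seeing the data, 15 genes rose and 8 fell in edgeR, of which 12 and 6 were among the original calls. The 12 were Actg1, Apoe, Atf3, Cd24a, Cst3, Fh1, Ms4a1, Mzb1, Plac8, Rgs10, Rilpl2 and Sp140. In the 330 and 269 IgM-high Ighd-0 cells of these other clusters, the B-1 list stood at 2331 CPM at day 14, against 1600.2 CPM, and at 1897 CPM at day 0, against 1472 CPM. The marginal zone list stood at 1027 CPM, against 818 CPM, and at 1014 CPM, against 863 CPM. Within clusters of at least 10 cells of each set, the S100a6 cluster included, its ratio was above 1 in 8 of 9 at day 14. At day 0 it was above 1 in 5 of 7. The interval lay above 1 in 3 of the 9 and 1 of the 7. For the B-1 list it did in 6 and 3, and for Mzb1 in 4 and 1. For the marginal zone list and Mzb1 the 1 at day 0 was the cluster led by Srm and Pa2g4. It held 22 IgM-high Ighd-0 cells there, with ratios of 2.11 and 2.80.

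The levels also moved with the counts the rule was built on. Among unswitched cells with at least 5 Ighm UMIs, Apoe at day 0 was 1608 CPM with 0 Ighd UMIs, 945 CPM with 1 to 2, 814 CPM with 3 to 5 and 451 CPM with 6 or more. At day 14 the 4 values were 1042, 567, 598 and 472 CPM, with no steady order after the first. Plac8 and Mzb1 were highest with 0 Ighd UMIs on both days. With 6 or more they stood at 1687 CPM and 524 CPM at day 14, against 1812 CPM and 532 CPM with 0. At day 0 they stood at 1138 CPM and 461 CPM, against 1390 CPM and 597 CPM. The highest Ighd class held 20 cells at day 14 and 24 at day 0. Cd9 was not highest with 0 Ighd UMIs at day 14, where the 4 classes stood at 52.5, 36.8, 38.6 and 73.4 CPM. The last value (29.5 to 151) rested on 7 UMIs. At day 0 the Cd9 values were 38.2, 29.5, 14.6 and 18.8 CPM.

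Among cells with 0 Ighd UMIs, Apoe, Cd9 and the marginal zone list were highest with the most Ighm, as the plot of levels by class shows. At day 14 Apoe was 419 CPM with 1 to 2 Ighm UMIs, 582 with 3 to 4, 639 with 5 to 6, 935 with 7 to 9 and 1839 with 10 or more. Cd9 stood at 16.5, 16.9, 15.2, 30.4 and 140 CPM in the same classes at day 14, and at 12.9, 12.4, 24.8, 37.6 and 55.7 CPM at day 0. The marginal zone list reached 1379 CPM at day 14 and 1524 CPM at day 0 with 10 or more Ighm UMIs, against 750 CPM and 783 CPM with 1 to 2. Follicular genes ran the other way at the top, with 3149 CPM and 3024 CPM in cells with 10 or more, against 3878 CPM and 4883 CPM with 1 to 2. Cr2 did not follow the marginal zone list and stood at 84.6 CPM and 55.7 CPM in the highest class, against 95.8 CPM and 119 CPM in the lowest. The 59 and 67 cells with 10 or more Ighm UMIs had a median of 4287 and 3921 total UMIs, against 1986 and 2058 in the lowest class, so Ighm class and RNA content move together and cannot be told apart here.

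**Figure D4:**
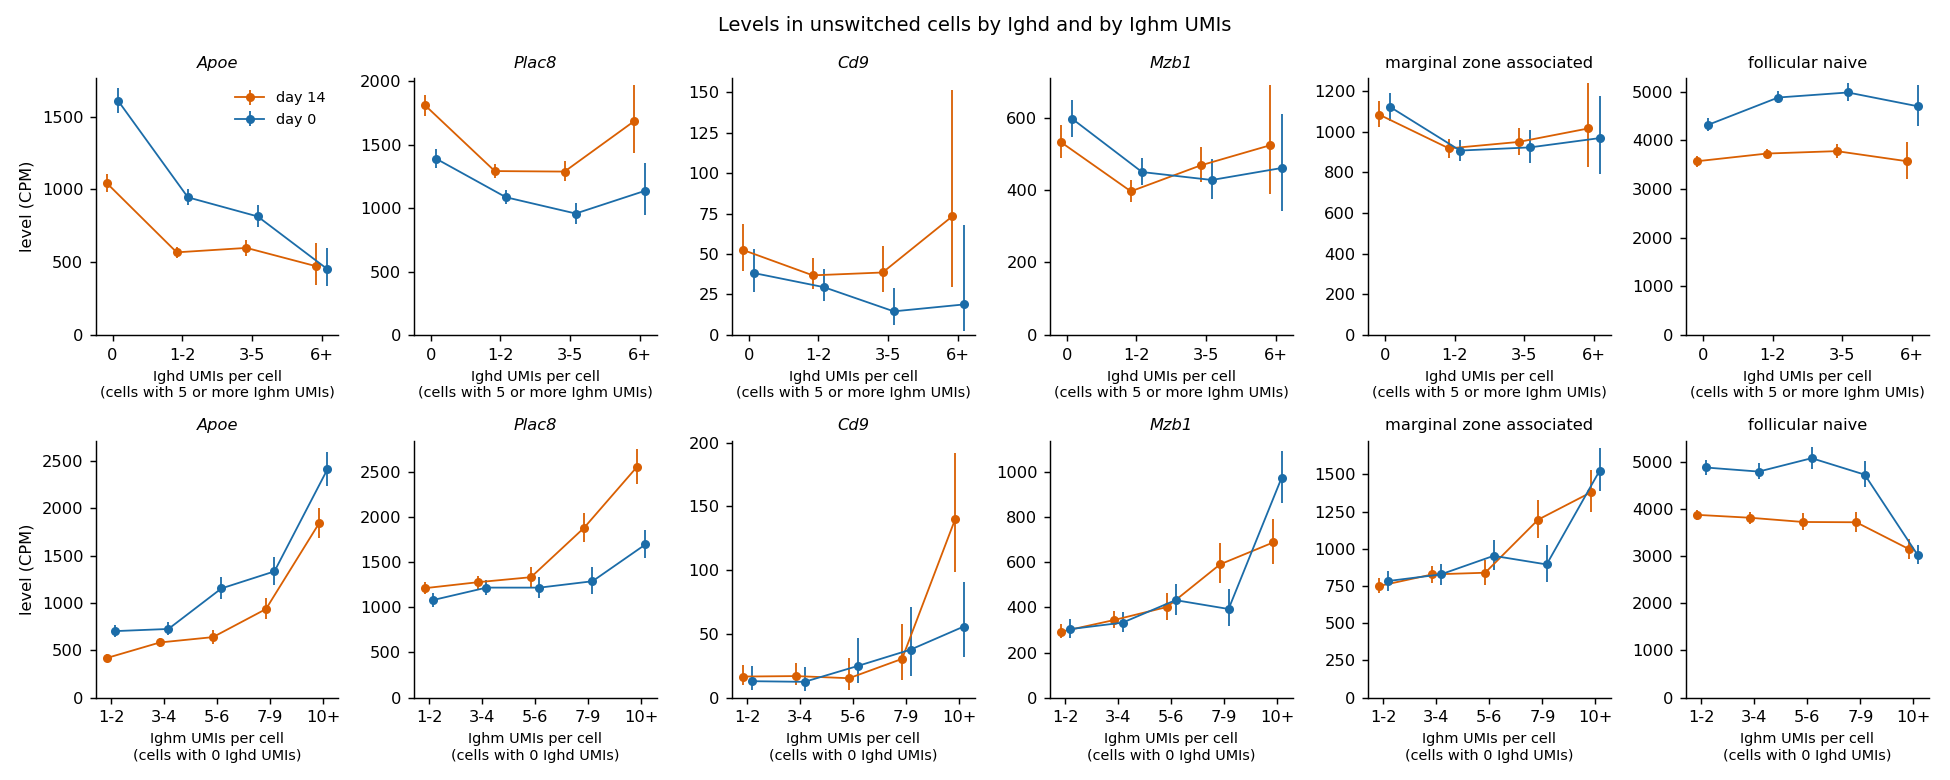
Levels in CPM of Apoe, Plac8, Cd9, Mzb1, the marginal zone list and the follicular list in unswitched cells, by Ighd UMIs among cells with at least 5 Ighm UMIs (top) and by Ighm UMIs among cells with 0 Ighd UMIs (bottom), with day 14 in orange and day 0 in blue and 95% counting intervals. Apoe is highest at 0 Ighd UMIs and at 10 or more Ighm UMIs, with 1839 CPM at day 14 and 2412 CPM at day 0, and the follicular list is lowest in the highest Ighm class.

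Light chain use was read from the constant gene with the most UMIs, at least 3, in a cell. Lambda genes were used by 19 of 344 IgM-high Ighd-0 cells (5.52%, 3.36 to 8.49) at day 14, against 28 of 993 (2.82%, 1.88 to 4.05). At day 0 they were used by 22 of 311 (7.07%, 4.49 to 10.5), against 39 of 861 (4.53%, 3.24 to 6.14). The intervals of the sets overlap on both days, and no test was made. All lambda constant genes were counted together. No heavy or kappa variable gene reached 3 UMIs in a cell of either set, and variable gene use could not be read.

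Markers of other cell types were nearly absent. Of 8 T cell genes, IgM-high Ighd-0 cells had 20 UMIs at day 14 and 33 at day 0, of which 17 and 28 were Lck, against 60 and 87 in comparison cells, of which 53 and 75 were Lck. Cd3e and Cd3g were at 0 on both days in IgM-high Ighd-0 cells, and in comparison cells had 0 UMIs at day 14 and 2 and 1 UMIs at day 0. Of 5 epithelial genes the IgM-high Ighd-0 cells had 10 UMIs on each day, against 19 and 26. Of 7 myeloid genes they had 7 UMIs at day 14 and 27 at day 0, against 12 and 5, and 1 cell at day 0 held 17 of them. Fcer1g, which encodes the Fc receptor gamma chain, had 17 UMIs at day 0, against 1 in comparison cells, and passed in edgeR (adjusted p = 0.0164), with 15 of the 17 in 1 cell. The part of such cells in the other results was not tested. Total UMIs above 2 times the library median were found in 51 of 351 IgM-high Ighd-0 cells at day 14, against 115 of 1018, and 25 of 314 at day 0, against 42 of 867. Without such cells 15 genes rose and 8 fell, of which 12 and 7 were among the original calls.

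Between the days, IgM-high Ighd-0 cells were a smaller share of the library at day 14, 7.48% against 9.54% at day 0, and the order was the same with a minimum of 10 Ighm UMIs (1.26% against 2.04%). Genes reaching 30 UMIs numbered 5251, of which 227 (4.32%) stood 1.5-fold or more higher at day 14 and 571 (10.9%) as far lower, with a median log2 ratio of −0.08, and no test is possible with 1 library a day. Of the interferon-gamma list, 9 of 15 measured genes were at least 1.5-fold higher and 1 lower, and the summed list was 1.46 (1.35 to 1.58) times the day 0 level. The comparison cells gave 1.56 (1.48 to 1.64). Serpina3g, an interferon-induced protease inhibitor, stood at 90.5 CPM at day 14, against 24.7 CPM at day 0, a ratio of 3.66 (2.28 to 6.12), with 4.53 (3.20 to 6.58) in comparison cells. Zbp1, a sensor of Z-form nucleic acids, had a ratio of 4.52 (2.19 to 10.5), with 4.72 in comparison cells. Serpina3g and Zbp1 were higher at day 14 in both cell sets. Fam46a, from 45 UMIs at day 14 against 9 at day 0, had a ratio of 4.33 (2.09 to 10.1) in IgM-high Ighd-0 cells, with 0.989 (0.725 to 1.35) in comparison cells, and the difference between the sets was not tested.

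Genes lower at day 14 included those of the germinal center-like cells, whose share of the set was 1.71% at day 14 and 5.41% at day 0. The germinal center list summed to 0.510 (0.426 to 0.610) times the day 0 level, with 0.712 (0.582 to 0.869) in comparison cells. The follicular list summed to 0.826 (0.790 to 0.865), with 0.790 in comparison cells. Rgcc, a regulator of the cell cycle, had a ratio of 0.216 (0.0723 to 0.543) from 6 and 24 UMIs, and Tgfbr1, a receptor for TGF-beta, had 0.270 (0.119 to 0.564) from 10 and 32, with 0.563 and 0.676 in comparison cells. Mbd2, which binds methylated DNA, had 0.255 (0.112 to 0.527) in IgM-high Ighd-0 cells, with 0.967 (0.590 to 1.59). Among the genes that set the IgM-high Ighd-0 cells apart, Apoe was lower at day 14 in both sets, 1042 CPM against 1608 CPM in IgM-high Ighd-0 cells and 528 CPM against 888 CPM in comparison cells, and Plac8 was higher, 1812 CPM against 1390 CPM in IgM-high Ighd-0 cells and 1225 CPM against 1075 CPM in comparison cells.

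**Figure D5:**
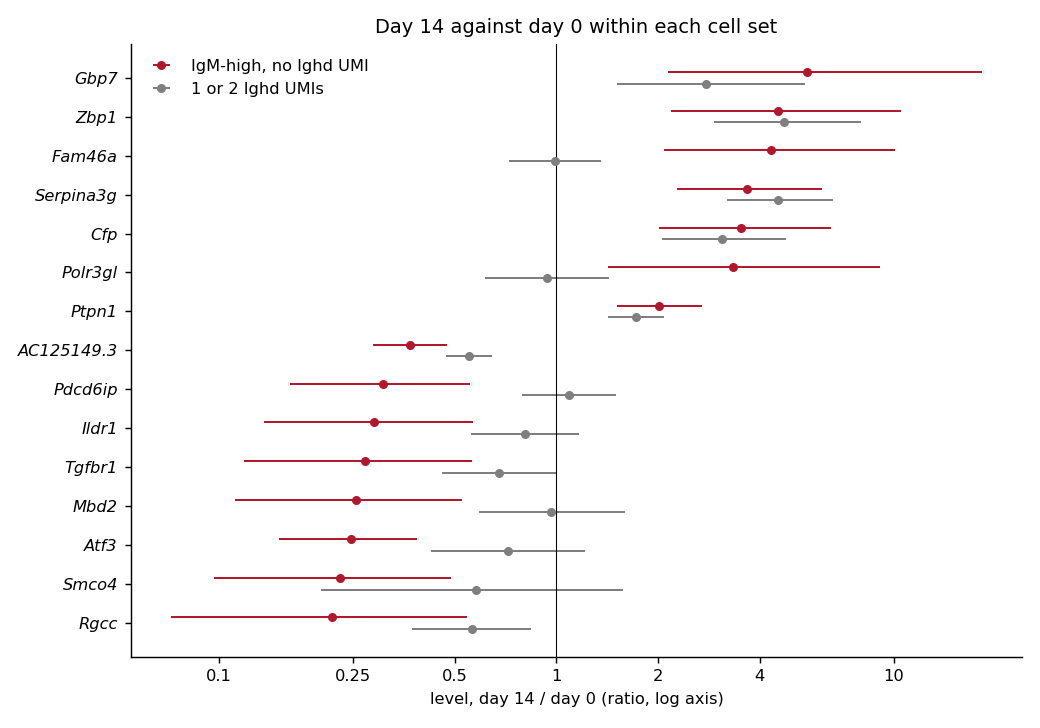
Ratio of day 14 to day 0 (log axis) within IgM-high Ighd-0 cells (red) and within comparison cells (grey) for genes named by rule, with 95% counting intervals. Gbp7, Zbp1, Serpina3g, Cfp and Ptpn1 are higher at day 14 in both sets, and Fam46a and Polr3gl have ratios near 1 in the comparison cells.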

How the data were processed

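The files hold 10x Genomics single-cell RNA libraries of sorted colonic B cells, 1 library at each of 2 days. UMI counts per gene and barcode were made by the authors with Cell Ranger (version 3.0.1 per the file headers), and the submitters' processing notes name mm10 and Seurat 3.0. The authors also deposited natural log values of normalized expression, used here only for the set of cells they kept. Aligner options and cell filters were not stated in the labels. No column of per-sample values was left unused (0).

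Cells were selected on raw counts as described. Gene positions are from the GENCODE annotation on mm10. Clusters were made from 2000 variable genes, 20 principal components and 20 neighbours with Leiden at resolution 0.8 (scanpy 1.11.5, leidenalg 0.10.2), and a cluster was named only with at least 3 markers among its leading genes. Selected and comparison cells were summed per library, giving 4 sums, and genes with at least 20 UMIs, immunoglobulin and mitochondrial genes left out, were tested by edgeR 4.0.16's quasi-likelihood test with TMM factors and the library as a block (R 4.3.3), p-values adjusted by Benjamini-Hochberg. DESeq2 1.42.0 was an alternative. The scripts were tested on simulated data. Intervals on ratios, levels and shares are exact at 95% (scipy 1.17.1). UMIs count molecules, and intervals cover counting error only.

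Named genes were the markers Cd9, Cr2 and Bhlhe41, the 12 genes each way with the most extreme counting bounds on both days among those with at least 50 UMIs, members of the B-1, marginal zone, immature and follicular lists with at least 10 UMIs, up to 4 of each other list with the largest log2 ratio and its most abundant member, and, between days, 8 genes each way with at least 30 UMIs. Crip1 and Cst3, and the other genes that lost or kept a call under an alternative, were named after their values were seen. Some genes that this rule names are not reported here. The members and the 21 gene lists were chosen with earlier results of these data known. Library totals were 12317052 and 8690102 UMIs. No doublet caller was run, and cells of high UMI number were left out as an alternative. Alternatives varied the comparison cells, the rule, depth, scaling, filters and tool. Nothing says that the libraries or the mice behind them are replicates, so p-values do not measure spread between mice. The test pools spread over all genes, with a median of 115.5 prior degrees of freedom against 1 residual degree a gene. The p-values therefore rest mostly on that pooled spread, and a gene's own agreement between the libraries enters little.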

Additional observations from a re-analysis of the deposited data

Results flagged for a closer look

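For 3 genes and 1 list the IgM-high Ighd-0 cells lay on one side of the comparison cells at day 14 and on the other at day 0, with counting intervals that leave out a ratio of 1 on both days, and the difference between the days was not tested. Cd55, which encodes a complement regulator, had a ratio of IgM-high Ighd-0 to comparison cells of 1.253 at day 14 and 0.808 at day 0. Pdcd6ip, a gene of membrane sorting, had 0.453 at day 14 and 1.60 at day 0. The heat shock gene Hspa1a had 0.808 at day 14 and 1.90 at day 0, and 1 IgM-high Ighd-0 cell at day 0 held 46 of its 99 UMIs. The summed mature B cell list had 1.02 at day 14 and 0.969 at day 0, and most of its UMIs were of Cd74.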

How the results depend on the processing

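The 2 cell sets of a library were paired through the library block. No pairing between the days was possible because the labels carry no replicate numbers and each day has 1 library. For the same reason no replicate could be left out. The test called 90 genes higher and 61 lower, and the total calls, which need not be the same genes, became 38 and 0 with comparison cells of at least 5 Ighm UMIs, 15 and 7 with 1 matching round, 54 and 30 with at least 10 Ighm UMIs, 29 and 4 with 0 Igha and Ighg UMIs, 15 and 8 without cells of high UMI number, 52 and 32 without germinal center-like and plasma-like cells, 8 and 13 after thinning to 1000 UMIs, 15 and 8 without those clusters and the S100a6 cluster, 15 and 0 without the library block, and 9 and 0 in DESeq2. Unmatched comparison cells gave 140 higher. The lower genes became 30 without the S100a6 cluster, 12 by total UMIs and 116 with no filter on low counts. Of the original calls, 43 and 25 remained with at least 10 Ighm UMIs, 38 and 26 without germinal center-like and plasma-like cells, 24 and 3 with 0 Igha and Ighg UMIs, and 8 and 9 after thinning. The causes were not tested.

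The B-1 list at day 14 had ratios of 1.36 with comparison cells of at least 5 Ighm UMIs, 1.51 unmatched, 1.74 with at least 10 Ighm UMIs, 1.28 without cells of high UMI number and 1.30 thinned. At day 0 it had 1.59 with at least 10 Ighm UMIs, 1.23 without cells of high UMI number, 1.41 without germinal center-like and plasma-like cells, 1.22 thinned and 1.21 without the S100a6 cluster. The marginal zone list at day 14 had 1.18 with comparison cells of at least 5 Ighm UMIs, 1.56 with at least 10 Ighm UMIs, 1.21 with 0 Igha and Ighg UMIs, 1.14 without cells of high UMI number and 1.12 thinned. At day 0 it had 1.67 with at least 10 Ighm UMIs, 1.15 thinned and 1.17 without the germinal center-like, plasma-like and S100a6 clusters. Both lists stayed above 1 under the alternatives run. The immature list had 1.12 with at least 10 Ighm UMIs and 0.985 thinned at day 14, and 1.09 without the clusters at day 0. The follicular list at day 0 had 0.730 with at least 10 Ighm UMIs and 0.980 without germinal center-like and plasma-like cells, and turned to 1.02 with 0 Igha and Ighg UMIs, 1.001 without cells of high UMI number and 1.02 without the clusters.

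At day 14 leaving out cells of high UMI number turned the cell cycle ratio to 0.961, and it was 0.991 without germinal center-like and plasma-like cells. At day 0 it turned to 0.857 with 0 Igha and Ighg UMIs, 0.837 without cells of high UMI number, 0.835 without germinal center-like and plasma-like cells and 0.835 without the clusters. The mature B cell list turned to 0.983 unmatched and 0.993 with TMM factors at day 14, and at day 0 to 1.01 without cells of high UMI number, 1.0005 without germinal center-like and plasma-like cells and 1.01 without the clusters. S100a6 at day 0 turned to 0.575 and 0.640 without its cluster alone and without all of them. In the main comparison cells at day 0, 1 cell outside the cluster held 42 of the 99 S100a6 UMIs. Stmn1 had log2 fold changes of −0.39 without cells of high UMI number, −0.26 without germinal center-like and plasma-like cells and −0.21 without the clusters.

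Between days, the counts of 227 and 571 genes became 636 and 1344 at a minimum of 10 UMIs and 29 and 78 at 100 UMIs, and the lower count became 312 with at least 10 Ighm UMIs and 271 thinned. Crip1 turned to 0.992 thinned and the follicular list to 1.04 with at least 10 Ighm UMIs. The share of IgM-high Ighd-0 cells became 1.60% and 2.61% thinned, 16.6% and 18.5% with at least 3 Ighm UMIs and 1.26% and 2.04% with at least 10, at day 14 and day 0. A median of 2524 and 2535 UMIs a cell limits what an Ighd count of 0 shows, and genes under 20 UMIs in all were not tested.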
